A study of Rattus norvegicus with 138 samples.

Results

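The 35 genes described here encode the folding, quality control and stress machinery of the endoplasmic reticulum, and they were chosen by symbol from the 16181 gene symbols with values in every library. They comprise 15 luminal chaperones and folding enzymes (Hspa5, Hsp90b1, Calr, Canx, Pdia3, Pdia4, Pdia6, P4hb, Dnajb9, Dnajb11, Dnajc3, Sdf2l1, Creld2, Manf and Hyou1) and 6 stress sensors and factors (Atf6, Ern1, Eif2ak3, Atf4, Ddit3 and Trib3). A further 6 belong to the channel through which proteins enter the organelle (Sec61a1, Sec61b and Ssr1 to Ssr4), 4 to degradation of misfolded proteins (Sel1l, Syvn1, Edem1 and Herpud1) and 4 to transport between the organelle and the Golgi (Kdelr2, Kdelr3, Sec23a and Sec24d). All 35 had values, and all 35 passed the filter on low values.

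RNA was sequenced from whole tibialis anterior (TA) muscles of male Lewis rats, an inbred strain, aged about 4 months. In a volumetric muscle loss (VML) injury a biopsy punch removed part of the tissue from the middle of the left TA muscle. The defect was either left without repair or filled with a minced muscle graft (MMG) made from the excised tissue of the same rat. Rats of both kinds either ran or did not run after surgery. Muscles were collected at 3, 7, 14 and 28 days post injury (DPI) from the injured leg and, as the contralateral group, from the opposite leg of operated rats. The control group, labelled as sham at day 0 and called uninjured in the study, comprised 4 muscles from both legs of 2 rats. All controls carried another rat series number (TS4) than every operated rat (TS5), so the rat series and the injury cannot be told apart in a comparison with controls.

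Without repair and without running there were 3, 8, 4 and 4 injured muscles at 3, 7, 14 and 28 DPI, and 2, 4, 2 and 2 contralateral muscles. The grafted, non-running arm held 7, 8, 4 and 4 injured and 2, 6, 2 and 2 contralateral muscles. In running rats there were 8, 4, 4 and 2 injured muscles without repair and 6, 4, 4 and 2 with a graft, each arm with 2 contralateral muscles at 3, 7 and 14 DPI. Values were TPM, a measure of relative transcript abundance that is scaled to transcript length and to a fixed total per library. Of 138 libraries, 13 with 901 to 5712 symbols above 1 TPM were left out, and those kept had 7866 to 10948. Read depth is not given by TPM values. Control replicate 4 had the fewest symbols of the muscles kept and was the lowest of the 4 controls for 28 of the 35 genes. The labelled tissue was checked against its markers: none of 14 muscle fiber genes was at 0 in any control or 3 DPI muscle, and Acta1, the skeletal muscle actin, averaged 51986 TPM in controls.

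Proteins that are secreted or placed in membranes enter the endoplasmic reticulum through the Sec61 channel, fold there with the help of Hspa5 (BiP), Hsp90b1, the lectins Calr and Canx and the protein disulfide isomerases, and leave in COPII vesicles. When unfolded protein builds up, the sensors Atf6, Ern1 (IRE1) and Eif2ak3 (PERK) start the unfolded protein response, in which Atf6 and the Ern1 product Xbp1 raise chaperone and degradation genes, while Eif2ak3 slows translation and favors Atf4, Ddit3 (CHOP) and Trib3. In skeletal muscle most of this membrane system is specialised as the sarcoplasmic reticulum, which stores calcium, and cells that secrete collagen or antibodies carry large amounts of the folding machinery.

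The DNA elements through which this response is known to act were looked up in promoters, since they divide the genes by something other than expression. The windows ran from 250 bases before to 50 bases after the RefSeq gene start (build GRCr8), and 27 of the 35 genes matched one of 27457 such windows. Both strands were searched for the ER stress response element ERSE (CCAAT, 9 bases of any kind, then CCACG), for ERSE-II (ATTGG, 1 base of any kind, then CCACG), for the core of the unfolded protein response element (TGACGTGG) and for the amino acid response element bound by Atf4 (TGATGNAAT). The windows of Hspa5 and Creld2 are shown for an ERSE, Herpud1 and Hyou1 for an ERSE-II, and Kdelr3 for the core element, each 5′ to 3′ on the strand of the gene with the matching letters in capitals.
Hspa5 (chr3:38452766-38453065, plus strand): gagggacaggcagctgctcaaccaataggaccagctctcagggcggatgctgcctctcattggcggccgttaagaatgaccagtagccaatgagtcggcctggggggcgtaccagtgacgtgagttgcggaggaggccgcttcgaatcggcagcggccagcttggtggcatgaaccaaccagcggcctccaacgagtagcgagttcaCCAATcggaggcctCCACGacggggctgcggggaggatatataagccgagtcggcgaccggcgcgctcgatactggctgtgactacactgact
Creld2 (chr7:121789134-121789433, plus strand): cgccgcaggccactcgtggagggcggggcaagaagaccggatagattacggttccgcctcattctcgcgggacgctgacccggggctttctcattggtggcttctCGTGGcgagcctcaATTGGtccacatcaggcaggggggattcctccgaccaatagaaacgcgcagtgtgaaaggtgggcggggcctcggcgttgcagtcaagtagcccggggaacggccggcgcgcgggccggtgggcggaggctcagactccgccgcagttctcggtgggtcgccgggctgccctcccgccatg
Herpud1 (chr19:10614658-10614957, minus strand): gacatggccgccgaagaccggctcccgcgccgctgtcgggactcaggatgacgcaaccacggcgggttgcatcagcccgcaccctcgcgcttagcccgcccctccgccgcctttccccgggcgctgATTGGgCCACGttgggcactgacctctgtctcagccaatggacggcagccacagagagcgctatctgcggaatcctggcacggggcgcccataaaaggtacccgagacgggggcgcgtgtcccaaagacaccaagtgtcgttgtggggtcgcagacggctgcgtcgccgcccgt
Hyou1 (chr8:53602632-53602931, plus strand): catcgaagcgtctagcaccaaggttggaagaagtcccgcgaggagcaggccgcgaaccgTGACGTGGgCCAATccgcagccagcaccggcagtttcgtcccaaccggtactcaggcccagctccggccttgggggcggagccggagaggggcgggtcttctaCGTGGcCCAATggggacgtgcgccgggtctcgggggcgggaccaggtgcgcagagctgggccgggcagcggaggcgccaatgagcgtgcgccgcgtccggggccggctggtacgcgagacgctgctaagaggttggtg
Kdelr3 (chr7:112959382-112959681, plus strand): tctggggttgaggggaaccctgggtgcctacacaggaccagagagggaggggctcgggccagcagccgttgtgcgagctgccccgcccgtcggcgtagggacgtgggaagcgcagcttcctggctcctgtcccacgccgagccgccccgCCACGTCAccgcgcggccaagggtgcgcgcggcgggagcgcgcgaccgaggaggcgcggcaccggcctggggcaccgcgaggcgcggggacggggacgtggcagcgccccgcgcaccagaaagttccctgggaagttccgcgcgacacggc

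An ERSE lay in 21 of all promoter windows (0.0765%) and in those of 6 members, namely Hspa5, Hsp90b1, Calr, Canx, Dnajc3 and Creld2. In Hspa5 the match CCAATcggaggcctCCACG spanned bases -43 to -25 from the start. Hsp90b1 held matches on each strand, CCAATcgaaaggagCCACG and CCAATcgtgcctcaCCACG. ERSE-II lay in 15 windows (0.0546%), among them those of Dnajb11, Hyou1 and Herpud1, and Hyou1 held it at -188 to -178 and at -88 to -78. The core TGACGTGG was found in 175 windows (0.637%), including Hyou1, where it overlapped the upstream ERSE-II, Kdelr3 and Sec23a. TGATGNAAT was in 288 windows (1.05%) and in none of the members' windows. The letters are a description of these windows, and the 8 unmatched members were Pdia3, Pdia6, Manf, Atf6, Ern1, Sec61a1, Kdelr2 and Sec24d.

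How far VML injury moved these genes from the level in uninjured muscle was the first comparison. At 3 DPI without repair or running, 26 of 35 members were higher than in controls and none was lower, where a call required an adjusted p under 0.05 by limma and a log2 fold change beyond 1 on the log2(TPM + 1) scale. Across the 11328 genes tested, 48.3% were called higher and 4.24% lower on that day. At 7 DPI 26 members were higher and 1 was lower (45.6% and 2.42% of all genes), at 14 DPI 14 and 1 (25% and 0.547%), and at 28 DPI 11 and 0 (21.1% and 0.212%). The median log2 fold change of the members fell from 1.98 at 3 DPI to 1.49, 0.80 and 0.66, against 0.96, 0.91, 0.53 and 0.52 over all genes tested. By adjusted p alone 31 members differed on each day (85.2%, 88.2%, 72.3% and 71.8% of all genes). In 29, 27, 26 and 25 members every injured muscle lay above every control (69.9%, 66%, 58.9% and 60.2%), and in 1, 1, 3 and 3 every injured muscle lay below (7.55%, 4.57%, 5.43% and 3.31%). On all 4 days 11 members were called higher (18.5% of all genes), and 8 were called on no day (41.9%).

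Markers of several cell types moved in the same muscles. Of 16 leukocyte genes, 16 were called higher on every day, and their summed level went from 34.8 to 65.6 TPM in controls to 6006 to 7743 TPM at 3 DPI and 394 to 1047 TPM at 28 DPI. All 15 fibroblast and matrix genes were higher on every day, with sums of 231 to 467 TPM in controls, 7233 to 12889 at 3 DPI, 10488 to 30351 at 7 DPI and 4097 to 6792 at 28 DPI. Of the 14 muscle fiber genes 14, 8, 2 and 1 were lower on the 4 days (14, 14, 5 and 6 rescaled), and they summed to 248747 to 305085 TPM in controls and 48947 to 67214 TPM at 3 DPI. Genes of regenerating fibers were higher for 6, 6, 6 and 7 of 7 (4, 6, 6 and 5 rescaled, with 1 lower at 3 DPI), and plasma cell and B cell genes for 4, 1, 2 and 1 of the 6 tested (1 on each day rescaled), with Ms4a1 at 0 in 4 of 4 controls. Of 5 genes of ribosomal RNA, 2, 3, 0 and 2 were called higher (0, 1, 0 and 1 rescaled). The part of these lists in the members' changes was not tested, and in bulk muscle fewer cells of a type and less RNA per cell cannot be told apart.

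Because the TPM of a library share 1 fixed total, every value was also computed after rescaling the muscles by median-of-ratios size factors. This moved the median of all genes against control by -0.868, -0.831, -0.505 and -0.477 log2 units at 3, 7, 14 and 28 DPI, and the medians of the members became 0.93, 0.51, 0.16 and 0.04. After rescaling 17, 13, 9 and 5 members were called higher (24.5%, 21.9%, 15.8% and 11.5% of all genes) and 5, 3, 4 and 2 lower (16.9%, 14.2%, 5.9% and 3.17%). The share of higher among all calls went from 91.9%, 95.0%, 97.9% and 99.0% to 59.2%, 60.6%, 72.8% and 78.4%. Eif2ak3, Sec61a1, Edem1, Kdelr3 and Sec24d were the 5 members called higher on all 4 days under both scalings (9.57% of all genes). Rescaled values or calls are given with the members' values against controls that follow.

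**Figure D1:**
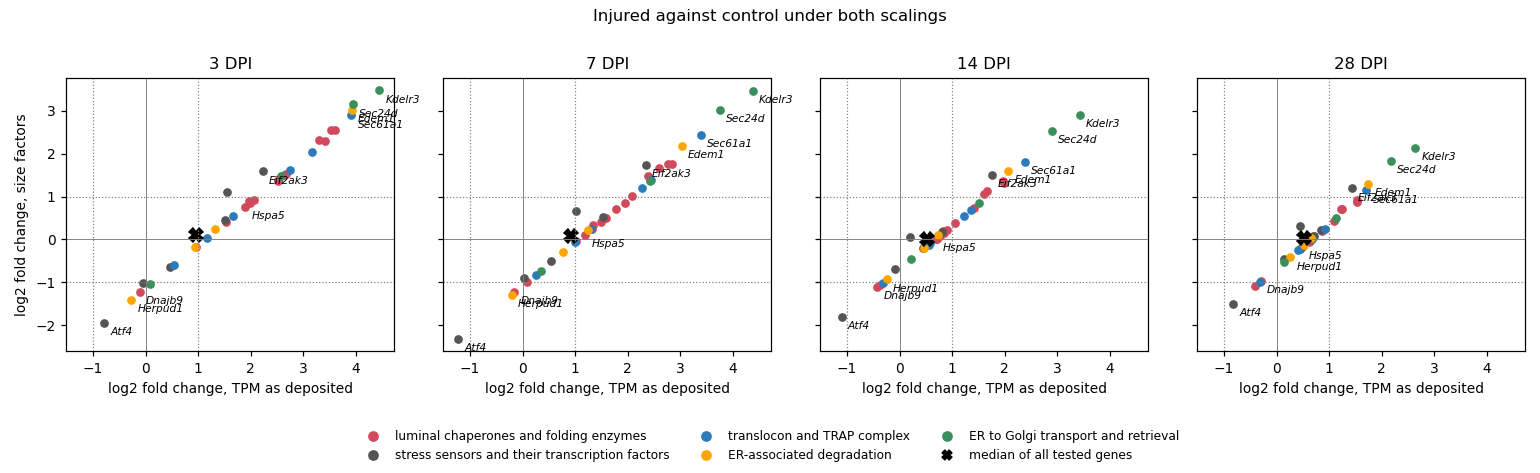
Log2 fold change of the 35 members, injured against control without repair or running, with TPM as deposited on the x axis and after median-of-ratios rescaling on the y axis, 1 panel for each of 3, 7, 14 and 28 DPI. Points are members coloured by role, the X marks the median of all genes tested and dotted lines mark 1 and -1. Members lie below the diagonal, and Kdelr3, Sec24d, Edem1, Sec61a1 and Eif2ak3 stay above 1 on both axes in every panel.

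Among the luminal chaperones and folding enzymes 13, 13, 6 and 5 of 15 were higher than in controls on the 4 days, with median log2 fold changes of 2.51, 1.59, 0.84 and 0.63. Hspa5, the Hsp70 chaperone of the lumen, measured 109, 109, 94.2 and 56.8 TPM in the 4 controls. At 3 DPI its level was 387, 356 and 277 TPM, at 7 DPI it ranged over 167 to 270.2 with a median of 195 TPM, at 14 DPI it was 138, 136, 157 and 157 TPM and at 28 DPI 117, 115, 137 and 139 TPM. Every injured muscle stood above every control, by the widest margin at 3 DPI. The log2 fold change was 1.90 ± 0.17 (SE, adjusted p = 8.06e-18, limma) at 3 DPI and 1.19 ± 0.14 (SE, adjusted p = 3.86e-13, limma) at 7 DPI, while 0.71 ± 0.16 at 14 DPI and 0.49 ± 0.16 at 28 DPI did not pass the fold threshold. After rescaling it was 0.76, 0.11, 0.02 and -0.18, so that the sign turned at 28 DPI.

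Hsp90b1, the Hsp90 chaperone of the lumen, measured 52.8, 52.1, 48.1 and 32.6 TPM in controls and 341, 318 and 238 TPM at 3 DPI. Its levels ran from 120.5 to 222 with a median of 163 TPM at 7 DPI and were 88.9, 87.5, 108 and 102 TPM at 14 DPI and 79.3, 75.8, 86.5 and 94.2 TPM at 28 DPI. No injured muscle reached down to a control. It rose by 2.67 ± 0.19 (SE, adjusted p = 5.79e-23, limma) at 3 DPI and by 1.06 ± 0.18 (SE, adjusted p = 1.65e-07, limma) at 14 DPI on the log2 scale, or 1.53 and 0.38 after rescaling. The glycoprotein lectins Calr and Canx were higher at 3 DPI by 2.07 ± 0.17 and 1.98 ± 0.14 and at 7 DPI by 1.49 ± 0.13 and 1.33 ± 0.11, none of these called after rescaling.

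The disulfide isomerases, which make and shuffle disulfide bonds, were all higher at 3 DPI. Pdia4 measured 8.29, 7.46, 9.09 and 4.95 TPM in controls and 114, 113 and 78.7 TPM at 3 DPI, and was still at 22.8, 20.8, 22.1 and 26.1 TPM at 28 DPI. All injured muscles were above all controls, and the log2 fold change was 3.61 ± 0.23 (SE, adjusted p = 2.61e-26, limma) at 3 DPI and 1.53 ± 0.21 (SE, adjusted p = 1.34e-09, limma) at 28 DPI, or 2.55 and 0.92 after rescaling. Pdia3, the isomerase that works with Calr and Canx on glycoproteins, was higher by 3.42 ± 0.21, 2.84 ± 0.17, 2.0 ± 0.20 and 1.54 ± 0.20 from 3 to 28 DPI. Its rescaled values were 2.29, 1.77, 1.32 and 0.88, the last not called.

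Pdia6, another isomerase, was at 55.1, 60.6, 53.0 and 44.7 TPM in controls, 352, 328 and 252 TPM at 3 DPI, 120.1 to 222 with a median of 165 TPM at 7 DPI, 90.2, 89.7, 106 and 97.8 TPM at 14 DPI and 81.3, 72.9, 85.3 and 91.4 TPM at 28 DPI. P4hb, a disulfide isomerase that is also a subunit of collagen prolyl 4-hydroxylase, was at 117, 121, 106 and 95.0 TPM in controls, 777, 649 and 508 TPM at 3 DPI, 301 to 537 with a median of 462 TPM at 7 DPI, 187, 187, 238 and 213 TPM at 14 DPI and 159, 159, 168 and 193 TPM at 28 DPI. For both genes each injured muscle was above each control, with the 28 DPI muscles closest to them. Pdia6 rose by 2.51 ± 0.16 and 1.59 ± 0.13 and P4hb by 2.53 ± 0.16 and 1.94 ± 0.13 at 3 and 7 DPI, against rescaled values of 1.37, 0.51, 1.38 and 0.86. At 28 DPI the rescaled values were -0.04 and -0.05, opposite in sign to the 0.63 and 0.63 of the deposited TPM, which did not pass the fold threshold.

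Stress-inducible partners of low abundance rose as well. Sdf2l1, which keeps client proteins soluble together with Dnajb11 and Hspa5, was at 3.68, 3.74, 2.11 and 2.91 TPM in controls and 53.6, 42.8 and 41.9 TPM at 3 DPI. It was at 15.4 to 38.1 with a median of 22.1 TPM at 7 DPI, 10.4, 10.5, 11.9 and 12.7 TPM at 14 DPI and 7.21, 6.99, 9.42 and 11.4 TPM at 28 DPI. The groups did not overlap on any day, and the log2 fold change went from 3.53 ± 0.22 (SE, adjusted p = 3.84e-26, limma) to 1.24 ± 0.21 (SE, adjusted p = 1.92e-07, limma), with rescaled values of 2.54 and 0.71. Creld2, an ER protein of the stress response whose ERSE is printed above, was at 2.55, 3.09, 3.77 and 2.39 TPM in controls, 42.5, 40.2 and 30.6 TPM at 3 DPI, 13.6 to 29.7 with a median of 18.9 TPM at 7 DPI, 11.6, 10.4, 12.8 and 11.2 TPM at 14 DPI and 7.22, 7.58, 8.06 and 10.3 TPM at 28 DPI. It too was separated from controls on all 4 days, by 3.29 ± 0.22 at 3 DPI and 1.24 ± 0.20 at 28 DPI. After rescaling these were 2.32 and 0.71, the latter not called. Manf, a secreted stress protein that is held in the lumen by Hspa5, was higher by 2.64 ± 0.18, 2.08 ± 0.14, 1.42 ± 0.17 and 1.09 ± 0.17. Its rescaled values were 1.51, 1.01, 0.74 and 0.43, called at 3 and 7 DPI alone.

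Hyou1, the nucleotide exchange factor of Hspa5, and Dnajb11, a J-domain co-chaperone, were higher at 3 DPI by 1.97 ± 0.16 and 1.53 ± 0.12, and at 7 DPI by 1.34 ± 0.13 and 1.02 ± 0.09. After rescaling Hyou1 was at 0.90 and 0.33 and Dnajb11 at 0.41 and -0.04, so that none of these calls held and the sign of Dnajb11 turned at 7 DPI. Dnajc3, the co-chaperone that restrains Eif2ak3, was at 40.6, 39.4, 39.5 and 37.6 TPM in controls and 86.3, 80.0 and 67.4 TPM at 3 DPI, then 28.9, 26.5, 31.6 and 34.1 TPM at 14 DPI. Its log2 differences of 0.96 ± 0.12 at 3 DPI and -0.37 ± 0.11 at 14 DPI were within the fold threshold, and the rescaled value was -0.17 at 3 DPI and -1.05, called lower, at 14 DPI. Dnajb9, which binds the Ern1 lumenal domain, measured 40.6, 38.5, 35.9 and 21.0 TPM in controls and 27.9, 32 and 32.2 TPM at 3 DPI, overlapping, for -0.11 ± 0.14 (SE, adjusted p = 0.475, limma) and a rescaled -1.22, called lower. Over the whole time course rescaling called Dnajb9 lower on 3 days and Dnajc3 on 2. At 3 DPI the log2 fold changes of the 6 members with an ERSE were 1.90 (Hspa5), 2.67 (Hsp90b1), 2.07 (Calr), 1.98 (Canx), 3.29 (Creld2) and 0.96 (Dnajc3), or 0.76, 1.53, 0.93, 0.85, 2.32 and -0.17 in the same order after rescaling. Those of the 3 members with an ERSE-II were 1.53 (Dnajb11), 1.97 (Hyou1) and -0.27 (Herpud1), or 0.41, 0.90 and -1.41 rescaled, and the core element stood in Hyou1, Kdelr3 (4.45) and Sec23a (0.08, or -1.04 rescaled).

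**Figure D2:**
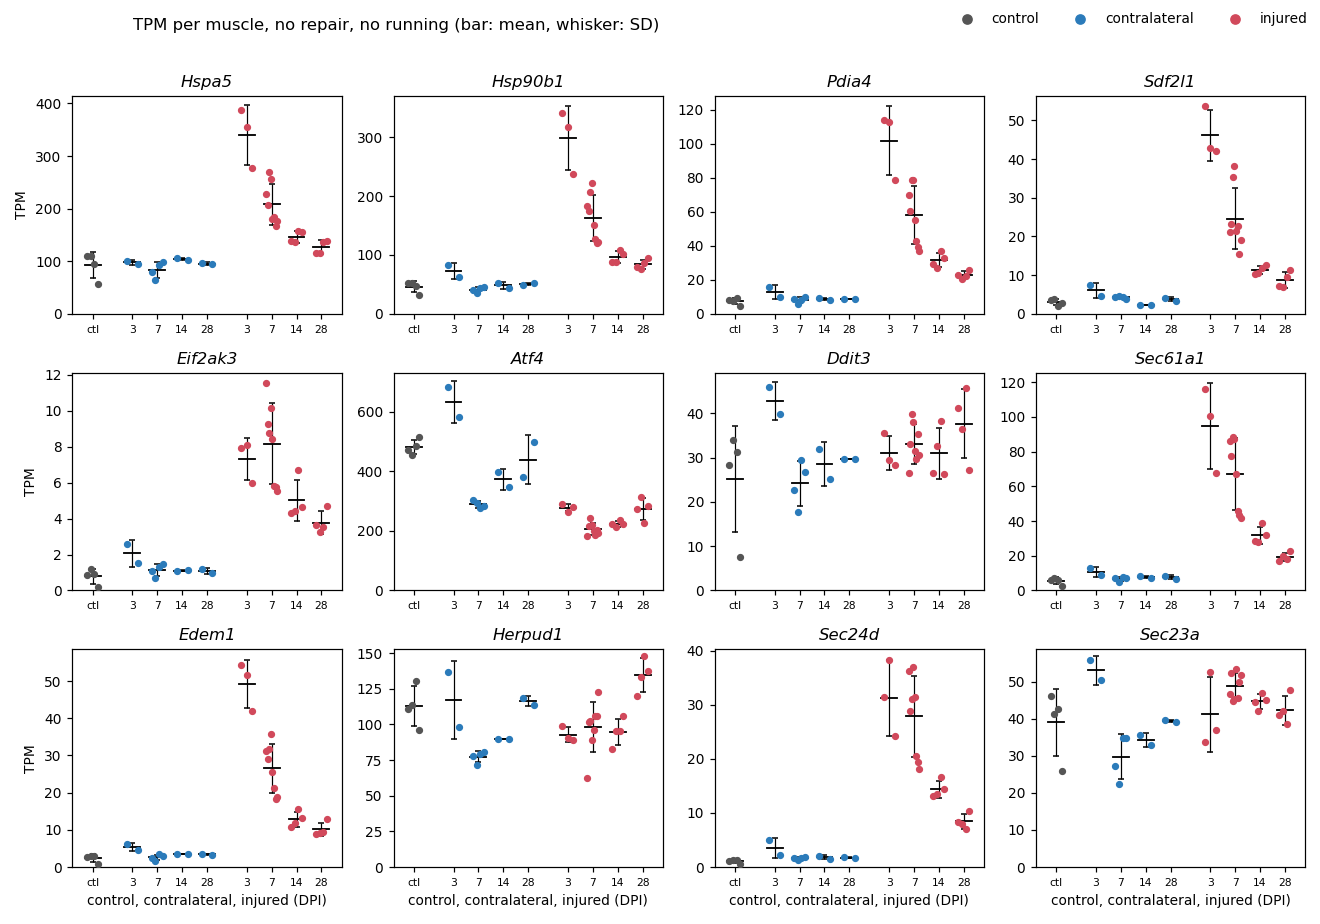
TPM of 12 members in each muscle without repair or running, 1 panel per gene, with the control, contralateral and injured groups by DPI on the x axis and TPM on the y axis. Points are muscles, bars are group means and whiskers are SD. Hspa5, Hsp90b1, Pdia4, Sdf2l1, Sec61a1, Edem1 and Sec24d are highest in the injured muscles at 3 DPI or 7 DPI, while Atf4 in every injured muscle lies below the controls.

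Of the 6 stress sensors and factors, 3, 3, 1 and 1 were higher than in controls on the 4 days, and Atf4 was called lower at 7 and 14 DPI. Eif2ak3, the kinase that slows translation, measured 0.87, 1.19, 0.91 and 0.21 TPM in controls and 7.92, 8.06 and 5.98 TPM at 3 DPI. Its level was 5.53 to 11.5 with a median of 8.59 TPM at 7 DPI, 4.29, 4.41, 6.67 and 4.66 TPM at 14 DPI and 3.64, 3.26, 3.52 and 4.68 TPM at 28 DPI. Each injured muscle was above each control, and the log2 fold change was 2.24 ± 0.20 (SE, adjusted p = 2.45e-18, limma) at 3 DPI, 2.34 ± 0.16 (SE, adjusted p = 9.73e-25, limma) at 7 DPI and 1.44 ± 0.18 (SE, adjusted p = 8.84e-11, limma) at 28 DPI, with rescaled values of 1.59, 1.74 and 1.19. Atf6, the sensor that is cut in the Golgi to release a transcription factor, was higher by 1.52 ± 0.19 at 3 DPI and 1.52 ± 0.16 at 7 DPI, or 0.46 and 0.52 after rescaling, not called.

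The other sensor was not called on the TPM scale. Ern1, the kinase and RNase that splices Xbp1, was at 5.1, 4.38, 4.78 and 4.43 TPM in controls and 2.5, 6.15 and 5.58 TPM at 3 DPI. It was at 3.85 to 5.59 with a median of 4.91 TPM at 7 DPI, 4.06, 4.18, 4.77 and 4.49 TPM at 14 DPI and 5.74, 5.6, 4.29 and 5.38 TPM at 28 DPI. These groups overlapped on every day. The log2 difference was -0.05 ± 0.16 (SE, adjusted p = 0.793, limma) at 3 DPI and between -0.08 and 0.14 from 7 DPI on, and the rescaled value of -1.01 at 3 DPI was called lower.

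Atf4, the transcription factor whose protein is controlled mainly through translation of its mRNA, was at 471, 456, 484 and 515 TPM in controls, the most abundant of the 6 regulators. It measured 290.0, 265 and 280.0 TPM at 3 DPI, 184 to 245 with a median of 201 TPM at 7 DPI, 222, 214, 238 and 222 TPM at 14 DPI and 272, 315, 226 and 282 TPM at 28 DPI. No injured muscle on any day reached the lowest control, and the lowest levels were at 7 DPI. The log2 difference was -0.79 ± 0.12 (SE, adjusted p = 2.9e-09, limma) at 3 DPI, within the fold threshold, -1.23 ± 0.09 (SE, adjusted p = 1.4e-21, limma) at 7 DPI and -1.10 ± 0.11 (SE, adjusted p = 2.64e-15, limma) at 14 DPI, both called lower, and -0.82 ± 0.11 (SE, adjusted p = 3.1e-10, limma) at 28 DPI. Rescaled values were -1.94, -2.32, -1.80 and -1.5, all called lower. At 3 and 28 DPI 4.24% and 0.212% of all genes were called lower, and Atf4 was not among them on the deposited scale.

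Ddit3, the factor known as CHOP, was at 28.2, 34.0, 31.2 and 7.66 TPM in controls, with replicate 4 far below the other controls. It was at 35.5, 29.4 and 28.4 TPM at 3 DPI, 26.5 to 39.9 with a median of 32.3 TPM at 7 DPI, 26.5, 32.6, 38.4 and 26.4 TPM at 14 DPI and 41.3, 36.5, 45.7 and 27.3 TPM at 28 DPI, and injured and control muscles overlapped on all days. Its log2 difference of 0.47 ± 0.20 (SE, adjusted p = 0.0263, limma) at 3 DPI and 0.72 ± 0.19 (SE, adjusted p = 0.00043, limma) at 28 DPI did not pass the fold threshold, and after rescaling it was -0.63 and 0.08, of opposite sign at 3 DPI. Without control replicate 4 the difference was -0.0039 (adjusted p = 0.989, limma) at 3 DPI and 0.25 (adjusted p = 0.144, limma) at 28 DPI. Trib3, a pseudokinase and target of Atf4 and Ddit3, was close to 0 in controls at 0.53, 0.14, 0.33 and 0.1 TPM. It was at 3.29, 2.08 and 2.8 TPM at 3 DPI, 0.66 to 2.76 with a median of 1.49 TPM at 7 DPI, 0.71, 0.5, 0.45 and 0.22 TPM at 14 DPI and 0.56, 0.66, 0.77 and 0.88 TPM at 28 DPI. Trib3 rose at 3 DPI by 1.55 ± 0.27 (SE, adjusted p = 1.88e-07, limma) and at 7 DPI by 1.02 ± 0.21 (SE, adjusted p = 9.48e-06, limma), or 1.11 and 0.66 after rescaling, and at these levels the value added before taking logs shrinks the fold change.

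Of the 6 channel genes, 5, 5, 3 and 1 were higher than in controls on the 4 days, with medians of 2.21, 1.79, 0.90 and 0.55. Sec61a1, the pore subunit of the translocon, measured 6.2, 7.22, 5.92 and 2.56 TPM in controls, 116, 101 and 67.7 TPM at 3 DPI and 41.9 to 88.5 with a median of 72.3 TPM at 7 DPI. At 28 DPI it was still at 17.3, 19.6, 18.0 and 22.4 TPM, above every control, and the log2 fold change went from 3.92 ± 0.24 (SE, adjusted p = 1.74e-26, limma) at 3 DPI to 1.71 ± 0.23 (SE, adjusted p = 4.05e-10, limma), or 2.89 and 1.14 rescaled. Sec61b, a small subunit of the same pore, was higher by 3.17 ± 0.27, 2.45 ± 0.22 and 1.22 ± 0.25 up to 14 DPI, and its 0.67 ± 0.25 at 28 DPI did not pass. Its rescaled values were 2.04, 1.38, 0.55 and 0.01, called at 3 and 7 DPI alone.

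The TRAP complex, formed by Ssr1 to Ssr4 beside the pore, was called higher in part. At 3 DPI Ssr2 rose by 2.74 ± 0.18, Ssr1 by 1.67 ± 0.15 and Ssr3 by 1.17 ± 0.14, and only Ssr2 of these was called after rescaling. Ssr4 was at 162, 161, 149 and 203 TPM in controls, 283, 252 and 206 TPM at 3 DPI, 159 to 244 with a median of 201 TPM at 7 DPI, 128, 129, 143 and 134 TPM at 14 DPI and 137, 144, 125 and 132 TPM at 28 DPI. Its injured muscles lay above the controls at 3 DPI, overlapped them at 7 DPI and lay below them at 14 and 28 DPI. None of the differences passed the fold threshold, at 0.55 ± 0.13, 0.25 ± 0.10, -0.32 ± 0.12 and -0.31 ± 0.12. The rescaled values were -0.60, -0.83, -1.02 and -0.99, of which that at 14 DPI was called lower. The direction of Ssr4 at 3 and 7 DPI thus depends on the scaling.

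Some of the genes of degradation rose and others were not called. Edem1, a mannosidase-like protein that passes misfolded glycoproteins to degradation, was at 2.67, 3.05, 3.04 and 0.94 TPM in controls and 54.2, 51.7 and 41.9 TPM at 3 DPI. It was at 18.2 to 35.8 with a median of 27.4 TPM at 7 DPI, 10.9, 11.9, 15.5 and 13.2 TPM at 14 DPI and 9.01, 9.19, 9.43 and 12.8 TPM at 28 DPI, always above the controls. The log2 fold change was 3.93 ± 0.20 (SE, adjusted p = 2.5e-31, limma) at 3 DPI and 1.75 ± 0.19 (SE, adjusted p = 3.22e-13, limma) at 28 DPI, with 3.02 and 1.29 after rescaling. Syvn1, the ubiquitin ligase of the retrotranslocation complex, rose by 1.32 ± 0.16 at 3 DPI and 1.24 ± 0.12 at 7 DPI, and its partner Sel1l differed by 0.94 ± 0.15 and 0.77 ± 0.12, within the fold threshold. Rescaled values for Syvn1 were 0.25 and 0.23, not called, and those for Sel1l were -0.17 and -0.28, of opposite sign to the deposited scale.

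Herpud1, a membrane scaffold of the same degradation complex whose ERSE-II is printed above, was at 111, 113, 130.4 and 96.1 TPM in controls. It was at 98.8, 90.4 and 89.4 TPM at 3 DPI, 62.4 to 122 with a median of 102 TPM at 7 DPI, 83.1, 95.5, 95.5 and 106 TPM at 14 DPI and 119.9, 133, 148 and 137 TPM at 28 DPI. The injured and control muscles overlapped on all 4 days. Its log2 difference was -0.27 ± 0.15 (SE, adjusted p = 0.0962, limma) at 3 DPI and 0.26 ± 0.14 at 28 DPI, and the rescaled -1.41 and -1.29 at 3 and 7 DPI were called lower.

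Among transport genes 3 of 4 were higher on every day, and the medians of the group were 3.26, 3.09, 2.21 and 1.66. Kdelr3, a receptor that returns escaped lumenal proteins from the Golgi, was at 2.43, 2.38, 2.51 and 2.86 TPM in controls and 109.5, 89.2 and 45.5 TPM at 3 DPI. It was at 40.8 to 105 with a median of 86.0 TPM at 7 DPI, 35.9, 32.6, 47.3 and 34.9 TPM at 14 DPI and 21.7, 20.9, 17.9 and 24.4 TPM at 28 DPI. No injured muscle approached a control, and Kdelr3 had the highest log2 fold change of the 35 members on each day, from 4.45 ± 0.29 (SE, adjusted p = 4e-25, limma) at 3 DPI and 4.39 ± 0.23 (SE, adjusted p = 1.21e-30, limma) at 7 DPI to 2.64 ± 0.27 (SE, adjusted p = 3.87e-14, limma) at 28 DPI. After rescaling it was 3.47, 3.47 and 2.13. Its paralog Kdelr2 was higher by 2.58 ± 0.23, 2.42 ± 0.19, 1.52 ± 0.21 and 1.14 ± 0.21, or 1.47, 1.37, 0.86 and 0.49 rescaled, called at 3 and 7 DPI alone.

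Sec24d, a cargo-binding subunit of the COPII coat, was at 1.15, 1.23, 1.33 and 0.62 TPM in controls and 31.4, 38.3 and 24.2 TPM at 3 DPI. It was at 18.1 to 36.9 with a median of 30 TPM at 7 DPI, 13.2, 13.4, 16.7 and 14.4 TPM at 14 DPI and 8.37, 7.93, 7 and 10.4 TPM at 28 DPI. The injured muscles were separated from controls throughout, by 3.95 ± 0.24 (SE, adjusted p = 2.18e-27, limma) at 3 DPI, 3.76 ± 0.19 (SE, adjusted p = 4.31e-32, limma) at 7 DPI and 2.18 ± 0.22 (SE, adjusted p = 1.99e-14, limma) at 28 DPI, or 3.15, 3.02 and 1.83 rescaled. Sec23a, which pairs with Sec24 proteins in the coat, was at 46.1, 41.3, 42.7 and 25.8 TPM in controls and 33.8, 52.6 and 37.1 TPM at 3 DPI, for 0.08 ± 0.12 (SE, adjusted p = 0.526, limma), and the rescaled -1.04 was called lower. Without control replicate 4 the deposited-scale value of Sec23a was -0.10 (adjusted p = 0.440, limma).

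**Figure D3:**
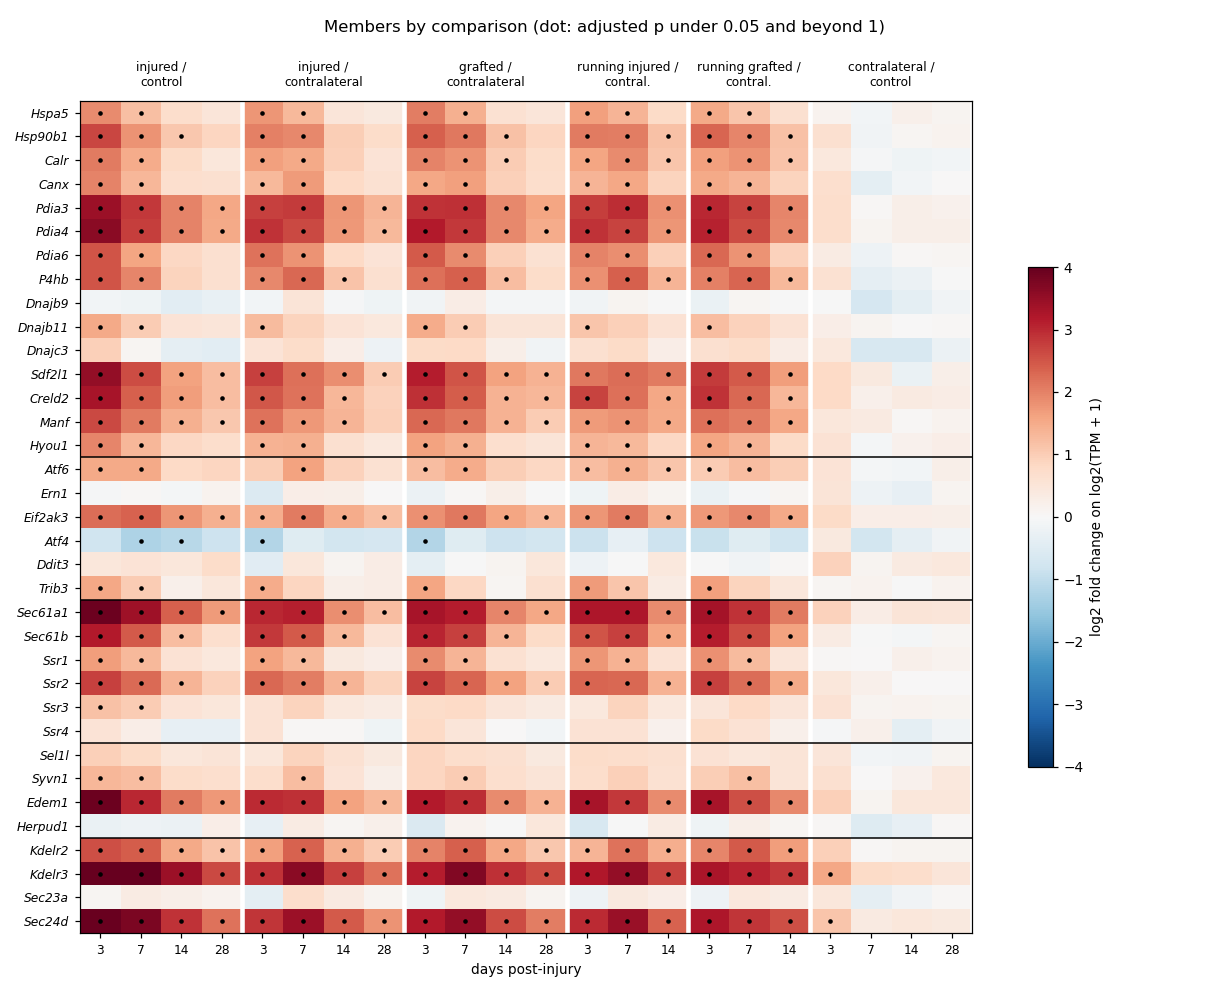
Log2 fold change of the 35 members (y axis, ordered by role) in 6 comparisons by DPI (x axis), with colour for the log2 fold change and a dot for a call. Injured and grafted muscles are higher for Kdelr3, Sec24d, Edem1 and Sec61a1 against controls or contralateral muscles on every day shown, Atf4 is lower, and the contralateral muscles carry 2 dots against controls, at 3 DPI.

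Some of these calls rest on single muscles. Without control replicate 4, the calls for Ssr3 at 3 DPI (0.94), Hspa5 (0.98), Dnajb11 (0.92), Trib3 (0.96), Ssr3 (0.77) and Syvn1 (0.997) at 7 DPI, Hsp90b1 at 14 DPI (0.91) and Kdelr2 at 28 DPI (0.90) fell below the fold threshold. At 7 DPI Dnajb11 was also lost without injured replicate 3 (0.99) or 4 (0.99), Ssr3 without injured replicate 1 (0.98), 2 (0.97), 3 (0.995) or 4 (0.98), and Trib3 without control replicate 2 (0.98) or injured replicate 2 (0.95), 3 (0.96) or 4 (0.97). Sel1l at 3 DPI was gained without control replicate 1 (1.04), control replicate 2 (1.03) or injured replicate 1 (1.12), and Dnajc3 at 3 DPI without injured replicate 3 (1.06).

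The opposite leg of operated rats gave a comparison within the same rat series. Against contralateral muscles without repair or running, 23, 23, 14 and 9 members were higher at 3, 7, 14 and 28 DPI, beside 32.3%, 45.3%, 20.9% and 13.1% of all genes. Lower calls numbered 1 at 3 DPI (5.92% of all genes), which was Atf4, and 0 later (2.01%, 0.168% and 0.212%). The members' medians were 1.61, 1.60, 0.80 and 0.56, against 0.54, 0.91, 0.50 and 0.38 over all genes. After rescaling, 19, 12, 8 and 2 members were higher (20.7%, 18.7%, 10.5% and 7.22%) and 3, 2, 1 and 1 lower (13.5%, 12.9%, 3.79% and 1.51%). Pdia3, Pdia4, Sdf2l1, Eif2ak3, Sec61a1, Edem1, Kdelr2, Kdelr3 and Sec24d were higher on all 4 days, 9 of 35 beside 10.7% of all genes. Every injured muscle lay above every contralateral muscle in 29, 29, 29 and 27 members (59.7%, 67%, 73.1% and 67.4% of all genes), and below in 3, 1, 1 and 2 (18.8%, 4.48%, 7.81% and 8.16%).

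By role, 13, 12, 6 and 3 of the 15 chaperones, 4, 4, 3 and 1 of the 6 channel genes, 1, 2, 1 and 1 of the 4 degradation genes and 3 of the 4 transport genes on every day were higher than in contralateral muscles. Sec61a1 was at 12.9 and 8.78 TPM in the 3 DPI contralateral muscles, for a log2 fold change of 3.00 ± 0.29 (SE, adjusted p = 1.5e-15, limma). Kdelr3 was at 12.6 and 7 TPM at 3 DPI and 5.1, 4.84, 5 and 5.16 TPM at 7 DPI in contralateral muscles. It was higher in the injured leg by 2.89 ± 0.35 (SE, adjusted p = 9.8e-12, limma) at 3 DPI and 3.62 ± 0.23 (SE, adjusted p = 2.29e-25, limma) at 7 DPI. The 3 highest values were those of Sec61a1, Edem1 (2.98 ± 0.24) and Pdia4 (2.90 ± 0.27) at 3 DPI, and those of Kdelr3, Sec24d (3.41 ± 0.19) and Sec61a1 (3.09 ± 0.20) at 7 DPI. At 28 DPI Kdelr3 (2.17 ± 0.33), Sec24d (1.79 ± 0.27) and Pdia3 (1.36 ± 0.24) led.

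The regulators were again mixed. Atf4 was at 684 and 584 TPM in the contralateral muscles at 3 DPI, 305, 293, 277 and 285 TPM at 7 DPI, 399 and 349 TPM at 14 DPI and 380.5 and 499 TPM at 28 DPI. All injured muscles were below all contralateral muscles of their day. The difference was -1.18 ± 0.14 (SE, adjusted p = 3.69e-12, limma) at 3 DPI, called lower, and -0.50 ± 0.09, -0.74 ± 0.13 and -0.68 ± 0.13 after that. Ern1 (-0.56 ± 0.20 (SE, adjusted p = 0.00877, limma)) and Ddit3 (-0.45 ± 0.24 (SE, adjusted p = 0.0833, limma)) were also below every contralateral muscle at 3 DPI without a call. Eif2ak3 rose by 1.46 ± 0.23, 2.07 ± 0.16, 1.49 ± 0.22 and 1.19 ± 0.22, Trib3 by 1.47 ± 0.32 at 3 DPI, and Atf6 by 1.60 ± 0.16 at 7 DPI, with 0.98 ± 0.23 at 3 DPI just inside the threshold. After rescaling Atf4 was at -1.76, -1.59, -1.40 and -1.15, called lower on all 4 days, and Eif2ak3 at 1.00, 1.34, 1.12 and 0.94, called at 7 and 14 DPI. Rescaled, Trib3 was called higher at 3 DPI (1.17) and Atf6 at 7 DPI was not called (0.58).

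At 28 DPI the calls for Sdf2l1 (1.01 ± 0.25) and Kdelr2 (1.01 ± 0.26) were the least firm. Sdf2l1 fell inside the threshold without contralateral replicate 2 (0.90), injured replicate 3 (0.97) or injured replicate 4 (0.88), and Kdelr2 without contralateral replicate 2 (0.99) or injured replicate 4 (0.95), while Manf was gained without contralateral replicate 2 (1.02). Hsp90b1 at 14 DPI was gained without contralateral replicate 1 (1.10) or injured replicate 1 (1.02) or 2 (1.03), Calr without injured replicate 2 (1.01) and Atf6 without contralateral replicate 1 (1.01). Atf6 at 3 DPI was gained without contralateral replicate 1 (1.10) or injured replicate 1 (1.23). With the rat as a random block, which pairs the legs of 1 animal, the value for Sdf2l1 at 28 DPI was 0.999, just inside the threshold.

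The contralateral leg itself was set against the uninjured controls. At 3 DPI 2 members were higher, beside 6.37% of all genes: Kdelr3 by 1.56 ± 0.33 (SE, adjusted p = 0.000148, limma) and Sec24d by 1.10 ± 0.27 (SE, adjusted p = 0.000758, limma). At 7, 14 and 28 DPI 0 members were called in either direction by limma (0.803%, 0.715% and 0.185%), with 9, 5 and 1 members at an unadjusted p under 0.05 (19.8%, 14.7% and 11.6% of all genes) against 27 at 3 DPI (60.4%). By adjusted p alone 25 members were higher at 3 DPI (53.7% of all genes, whose median was 0.43), 5 were lower at 7 DPI (3.43%), 1 was lower at 14 DPI (1.35%) and 0 differed at 28 DPI. Only Kdelr3 kept its call at 3 DPI after rescaling (2.37%). The contralateral muscles at 3 DPI had summed leukocyte levels of 138 and 349 TPM and fibroblast levels of 1019 and 2177 TPM, above all controls, and the part of these in the result was not tested.

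Both calls depended on few muscles. Contralateral replicate 1 was higher than replicate 2 in 35 of 35 members, with 12.6 against 7 TPM for Kdelr3 and 4.91 against 2.3 TPM for Sec24d. Without replicate 1 no member was called by limma (1.76% of all genes), without replicate 2 11 members were (12.5%), and without control replicates 1 to 4 the count was 5, 6, 5 and 1 (7.01%, 8.58%, 8.48% and 3.8%). At 7 DPI the lowest members were Atf4 (-0.73 ± 0.11), Dnajb9 (-0.68 ± 0.13) and Dnajc3 (-0.63 ± 0.11), and the highest was Kdelr3 (0.77 ± 0.27), none past the fold threshold. At 14 DPI Dnajc3 differed by -0.63 ± 0.14 (SE, adjusted p = 0.00298, limma). The injured muscles' comparisons with the control and with the contralateral group share the injured muscles, and 23, 23, 13 and 9 members were higher in both, beside 32.2%, 41.6%, 19.5% and 12.8% of all genes.

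Whether a graft or running went along with another pattern was asked arm by arm. Grafted muscles without running were higher than their contralateral muscles for 24, 24, 16 and 12 members at 3, 7, 14 and 28 DPI (37.2%, 42.9%, 25.6% and 18.8% of all genes), and Atf4 was lower at 3 DPI (6.8%). Injured muscles of running rats were higher for 24, 23 and 17 members at 3, 7 and 14 DPI (33.7%, 39.9% and 25.7%), and grafted muscles of running rats for 24, 23 and 16 (37.9%, 40% and 23.6%). In all 4 arms 23 members were higher at 3 DPI, 22 at 7 DPI and 14 at 14 DPI, beside 28.5%, 34.7% and 18.3% of all genes. Under both scalings these counts were 16, 12 and 7 (18.2%, 16.1% and 8.64%).

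Pooled over the 4 arms, 24 injured and 8 contralateral muscles could be set side by side at 3 DPI. Kdelr3 ranged from 45.5 to 157 TPM with a median of 95.0 in injured muscles and from 7 to 12.6 TPM with a median of 9.32 in contralateral muscles. Sec24d ranged from 24.2 to 62.4 TPM against 2.3 to 5.45 TPM. Edem1 ranged from 41.9 to 80.7 TPM against 4.66 to 6.82 TPM. The groups of these 3 genes did not overlap. Every injured muscle lay above every contralateral muscle in 27 of the 35 members (47.2% of all genes) at 3 DPI, 27 (55.1%) at 7 DPI, with 24 against 14 muscles, and 25 (55.6%) at 14 DPI, with 16 against 8. Atf4 was the only member separated downwards at 3 DPI (10.9%), at 264 to 376 TPM in injured and 501 to 684 TPM in contralateral muscles. It was also the only one at 14 DPI (4.46%), at 193 to 249.9 against 349 to 444 TPM. At 7 DPI its ranges of 173 to 270.3 TPM and 226 to 328 TPM overlapped. The members that overlapped at 3 DPI were Dnajb9, Ern1, Ddit3, Ssr3, Sel1l, Herpud1 and Sec23a.

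**Figure D4:**
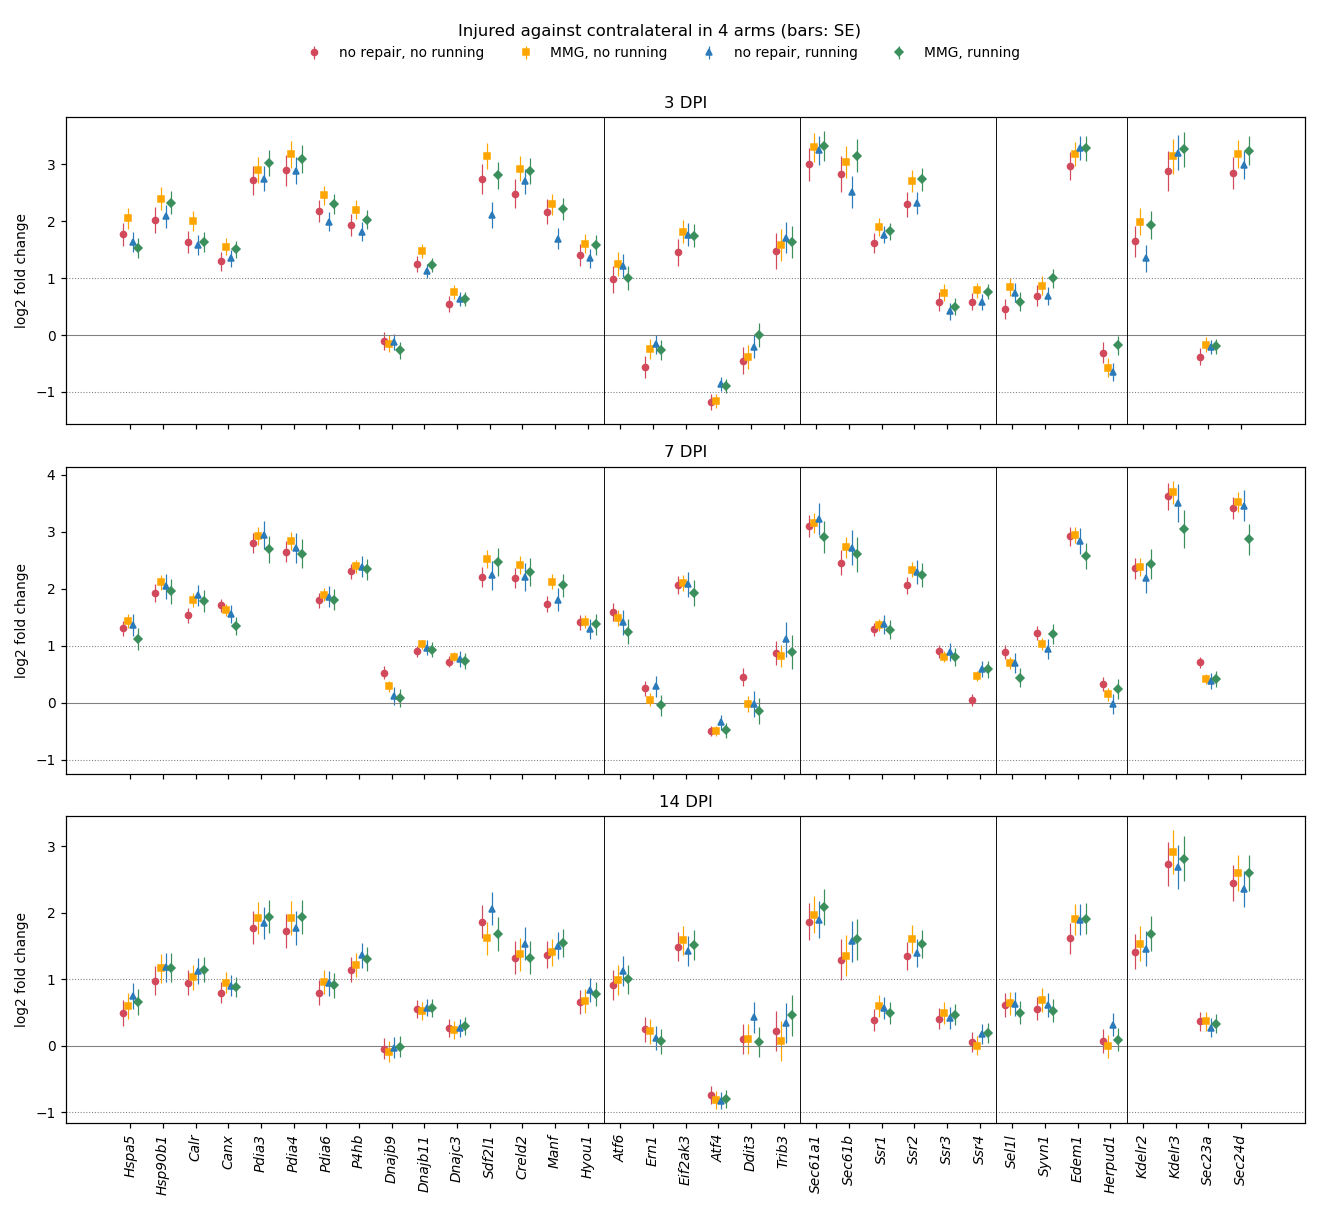
Log2 fold change of each member (x axis, by role) in injured against contralateral muscles in the 4 arms of repair and running, 1 panel for each of 3, 7 and 14 DPI, with bars for SE and dotted lines at 1 and -1. The 4 arms lie close together for most members, Kdelr3, Sec24d, Edem1 and Sec61a1 are near or above 3 at 3 DPI in all of them, and Atf4 is below 0 throughout.

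The log2 fold change of Sec61a1 at 3 DPI was 3.00 without repair or running, 3.30 with a graft, 3.25 with running and 3.33 with both. For Atf4 it was -1.18, -1.17, -0.86 and -0.90, or -1.76, -1.88, -1.48 and -1.63 rescaled. On the rescaled values Atf4 was called lower in all 4 arms at 3, 7 and 14 DPI. For Eif2ak3 the log2 fold changes were 1.46, 1.82, 1.76 and 1.75. A direct test of the difference between arms called 0 of the 35 members for the graft on any day and 0 for running (the smallest adjusted p was 0.415 by limma). At an unadjusted p under 0.05 there were 0, 4, 0 and 0 members for the graft, beside 2.09%, 11.5%, 0.883% and 0.556% of all genes, and 0, 2 and 0 for running, beside 10.8%, 8.67% and 1.2%. The differences ranged from -0.48 to 0.45 for the graft and from -0.63 to 0.54 for running, and over all genes 0.00883%, 0%, 0% and 0% were called for the graft and 0.23%, 0.00883% and 0% for running.

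Grafted and unrepaired injured muscles were also compared directly, and 0 members were called on any day by limma, where 0.00883%, 0.0883%, 0.0265% and 0% of all genes were called. At an unadjusted p under 0.05 there were 11, 22, 0 and 0 members, beside 17.3%, 27.0%, 5.23% and 1.24% of all genes. The differences ran from -0.05 (Herpud1) to 0.44 (Sec24d) at 3 DPI, from -0.24 (Herpud1) to 0.42 (Creld2) at 7 DPI, from -0.03 to 0.29 at 14 DPI and from 0.01 to 0.24 at 28 DPI. By adjusted p alone 6 members were higher in grafted muscles at 7 DPI (8.15% of all genes): Hspa5 (0.34), Hsp90b1 (0.38), Pdia6 (0.35), Creld2 (0.42), Manf (0.37) and Edem1 (0.40). The value of Pdia6 was 0.35 ± 0.11 (SE, adjusted p = 0.0263, limma), the smallest adjusted p of the members. In the same comparison 8 of the 16 leukocyte genes were higher by adjusted p alone, with a median of 0.54 over the list, and their summed level was 2673 to 5660 TPM in grafted and 921 to 4101 TPM in unrepaired muscles. Their part in the members' values was not tested.

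Running against no running, without repair, likewise gave 0 calls among the members by limma (0.0441%, 0%, 0.0177% and 0.0177% of all genes at 3, 7, 14 and 28 DPI), and 8, 13, 2 and 0 members at an unadjusted p under 0.05, beside 14.5%, 21.3%, 9.96% and 3.79% of all genes. The largest values at 7 DPI were Sec61b (0.69 ± 0.22 (SE, adjusted p = 0.128, limma)), Kdelr2 (0.55 ± 0.19) and Sec24d (0.54 ± 0.19), and the lowest was Atf6 (-0.32 ± 0.16). In the same comparison the leukocyte genes had a median of 0.52 and the fibroblast and matrix genes one of 0.54, with 0 of the 16 and 0 of the 15 called by adjusted p alone. The leukocyte genes summed to 2354 to 5322 TPM in running and 921 to 4101 TPM in other muscles, and their part in the members' values was not tested. At 14 DPI Sdf2l1 (0.42 ± 0.21) and Atf6 (0.41 ± 0.18) were highest. At 28 DPI, with 2 running muscles, values lay between -0.38 (Trib3) and 0.22 (Atf4). A missed threshold does not show that the arms act alike, and at 28 DPI the value for Kdelr3 was 0.04 ± 0.33.

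The time course within injured muscles was tested between days. From 3 to 7 DPI 0 members passed the fold threshold by limma (5.35% of all genes were lower and 2% higher), although 21 were lower by adjusted p alone (25%) and 1 was higher (13.8%). From 7 to 14 DPI 3 members fell (6.1%): P4hb by -1.04 ± 0.13, Sec61a1 by -1.01 ± 0.20 and Sec61b by -1.23 ± 0.22 on the log2 scale. The rescaled values were -0.64, -0.62 and -0.83, none of them called. From 14 to 28 DPI 0 were called (0.353% lower), with 12 members at an unadjusted p under 0.05 beside 13.8% of all genes. From 3 to 28 DPI 23 members were lower (24.3%) and 0 higher (4.53%), led by Sec61b (-2.5 ± 0.27), Sdf2l1 (-2.29 ± 0.22) and Sec61a1 (-2.21 ± 0.24). After rescaling 15 members were lower (13.8%) and 0 higher (9.12%). Herpud1 differed the other way, by 0.53 ± 0.15 (SE, adjusted p = 0.00172, limma).

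Those counts shifted with single muscles. From 3 to 7 DPI there were 5 calls without injured 3 DPI replicate 3 (8.23% of all genes) and 1 without injured 7 DPI replicate 3 (7.91%) or 4 (8.12%). From 7 to 14 DPI the count ran from 1 to 7, with 7 without injured 14 DPI replicate 3 (8.49%). The mean over the injured muscles was highest at 3 DPI for 30 members, at 7 DPI for 2 (Eif2ak3 and Sec23a), at 14 DPI for 0 and at 28 DPI for 3 (Ern1, Ddit3 and Herpud1), whereas 53.0%, 28.3%, 3.70% and 15.0% of all genes peaked on those days.

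As shares of the transcriptome, the 35 genes together took 1600 to 1787 TPM in controls, with a mean of 1728 TPM. The sum was 4325 to 6140 TPM at 3 DPI with a mean of 5316, and then averaged 3681, 2289 and 2064 TPM at 7, 14 and 28 DPI. The chaperones had a mean summed level of 697 TPM in controls and 3481 TPM at 3 DPI, against 304 and 1012 TPM for the channel genes. The summed level of the regulators, most of it Atf4, went from 521 TPM to 351, 280, 280 and 337 TPM. Degradation genes summed to 144 TPM in controls, 204 TPM at 3 DPI and 187 TPM at 28 DPI, and transport genes to 61.2 TPM, 268 TPM and 113 TPM.

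Ratios between genes within a muscle do not depend on how muscles are scaled. Those given here were chosen after the values had been seen and carry no test. Sec24d over Sec23a was 0.0240 to 0.0312 in controls and 0.0414 to 0.0880 in the contralateral muscles of all days. In injured muscles it was 0.653 to 0.930 at 3 DPI, 0.348 to 0.817 at 7 DPI, 0.295 to 0.356 at 14 DPI and 0.182 to 0.218 at 28 DPI. Sec23a transcripts were in excess in every one of these muscles, and at 28 DPI no injured muscle had come back to the contralateral range.

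Other functional pairs were treated alike. Edem1 over Herpud1 was 0.00978 to 0.0269 in controls, 0.0238 to 0.0475 in contralateral muscles, 0.469 to 0.572 at 3 DPI and 0.0636 to 0.0937 at 28 DPI. Hspa5 over Atf4 was 0.110 to 0.240 in controls, 0.148 to 0.348 in contralateral muscles, 0.990 to 1.34 at 3 DPI and 0.365 to 0.608 at 28 DPI. Eif2ak3 over Ern1 was 0.0474 to 0.272 in controls, 0.187 to 0.382 in contralateral muscles, 1.07 to 3.17 at 3 DPI and 0.582 to 0.870 at 28 DPI. In each pair the injured muscles stood above both other groups on all days. Kdelr3 over Kdelr2, the paralogous retrieval receptors, was 0.109 to 0.273 in controls, 0.542 to 0.786 at 3 DPI and 0.430 to 0.576 at 28 DPI. Hspa5 over Ddit3 was 3.02 to 7.41 in controls, 9.76 to 12.1 at 3 DPI and 2.83 to 5.1 at 28 DPI, so that this ratio overlapped with controls again. For Kdelr3 over Kdelr2 and for Hspa5 over Ddit3 control replicate 4 set the top of the control range. Contralateral ranges are not given for those pairs.

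**Figure D5:**
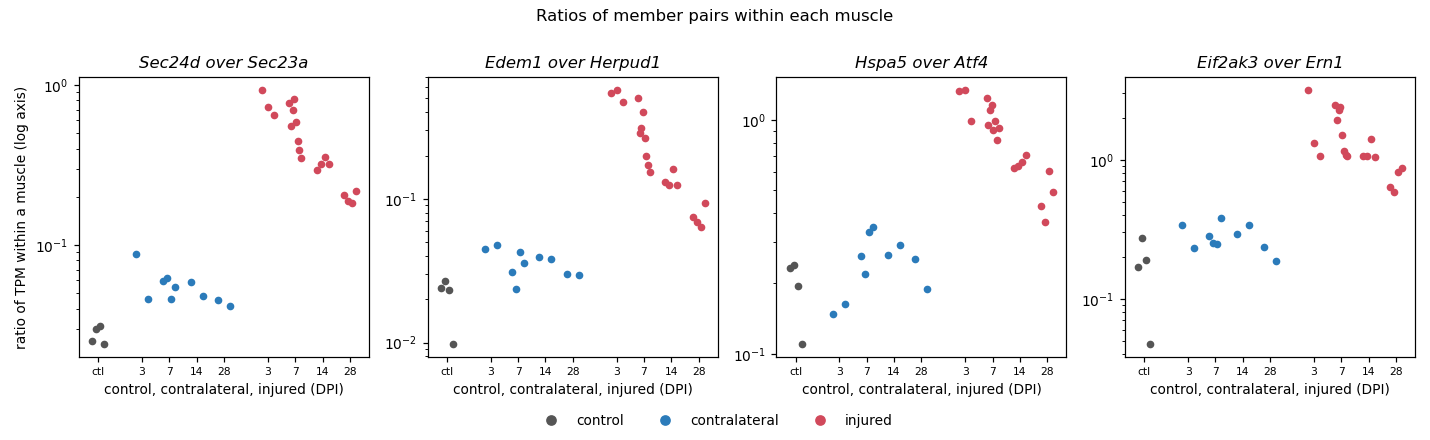
Ratio of the TPM of 2 genes within each muscle, on a log axis, for Sec24d over Sec23a, Edem1 over Herpud1, Hspa5 over Atf4 and Eif2ak3 over Ern1, with control, contralateral and injured groups by DPI on the x axis. Points are muscles without repair or running. In all 4 panels the injured muscles lie above the controls and contralateral muscles, highest at 3 or 7 DPI.

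Further lists of the same pathways, drawn up by function, place the members among their neighbours. Of all 11328 genes tested, 5474, 5171, 2827 and 2386 were higher than in controls at 3, 7, 14 and 28 DPI. The counts against contralateral muscles were 3655, 5137, 2366 and 1484. Of 31 other folding genes, 29, 26, 20 and 18 were higher than in controls at 3, 7, 14 and 28 DPI, and the 3 DPI median was 2.26 (1.13 rescaled). After rescaling 17, 15, 13 and 9 were higher and 0, 1, 0 and 0 lower. Ppic, a lumenal prolyl isomerase, went from 1.77 to 85.2 TPM (4.92 ± 0.35), and Lman2, a cargo lectin, differed by 0.29, or -0.86 rescaled. Of 14 genes for folding and modifying collagen, 13, 12, 11 and 9 were higher, with a 3 DPI median of 3.01 (1.97 rescaled), and 11, 10, 8 and 7 were higher after rescaling. Serpinh1, the collagen chaperone Hsp47, went from 24.7 to 653 TPM (4.68 ± 0.29). Against contralateral muscles 23, 27, 19 and 15 of the folding genes and 11, 12, 11 and 8 of the collagen genes were higher, or 15, 15, 12 and 8 (with 1 lower at 7 DPI) and 9, 9, 8 and 6 rescaled.

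Other stress genes were mixed. Of 29, 16 were higher and 1 lower at 3 DPI, with a median of 1.03 (0.19 rescaled), then 15 and 2, 5 and 1, and 7 and 1. After rescaling 6, 5, 5 and 3 were higher and 4, 4, 3 and 2 lower. Asns, an asparagine synthetase known as an Atf4 target, went from 0.372 to 28.0 TPM (4.40 ± 0.22), and Nupr1, a stress-induced chromatin protein, from 9.91 to 251 TPM (4.51 ± 0.29). Chac1, a glutathione-degrading enzyme also known as an Atf4 target, went from 105 to 24.9 TPM (-1.87 ± 0.48). Asns and Chac1 thus moved in opposite directions, and no set of Atf4 targets was counted. Against contralateral muscles 8, 18, 6 and 5 of these genes were higher and 2, 1, 0 and 1 lower, or 4, 6, 4 and 3 higher and 3, 4, 2 and 2 lower rescaled.

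Of 26 other translocation and glycosylation genes, 14, 15, 2 and 2 were higher than in controls, with a 3 DPI median of 1.27 (0.14 rescaled). In the contralateral comparison 8, 13, 2 and 1 were higher (4, 2, 1 and 0 rescaled, with 1 lower at 7 DPI). After rescaling 3, 2, 2 and 0 were higher and 0, 2, 1 and 0 lower than in controls. Medians of this list at 14 and 28 DPI turned from 0.48 and 0.43 to -0.19 and -0.22. Tram1, a membrane protein beside the channel, led at 3.06 ± 0.20. Of 16 other degradation genes, 6, 6, 3 and 2 were higher, with a median of 0.50 at 3 DPI that was -0.62 rescaled, and 5, 6, 2 and 1 against contralateral muscles (2, 1, 0 and 0 rescaled, with 2, 2, 0 and 0 lower). After rescaling 3, 2, 0 and 0 were higher and 2, 3, 2 and 1 lower than in controls. The degradation medians at 7, 14 and 28 DPI turned from 0.58, 0.36 and 0.28 to -0.46, -0.32 and -0.38. Edem2, a mannosidase related to Edem1, had the highest value against controls, at 3.12 ± 0.17. Of 29 other transport genes, 19, 15, 5 and 2 were higher and 1, 1, 1 and 0 lower, with a median of 1.21 (0.10 rescaled), and 12, 19, 4 and 1 were higher than in contralateral muscles (4, 3, 1 and 1 rescaled, with 1, 2, 1 and 0 lower). After rescaling 4, 3, 1 and 1 were higher and 2, 2, 2 and 2 lower than in controls. Transport medians at 14 and 28 DPI turned from 0.53 and 0.43 to -0.16 and -0.22. Tmed3, a cargo receptor, rose by 4.43 ± 0.28, and Sar1b, the GTPase that starts COPII assembly, fell from 718 to 232 TPM (-1.64 ± 0.21).

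The sarcoplasmic reticulum, the specialised part of this membrane system in fibers, went mostly the other way at 3 DPI. Of its 13 genes 3 were higher and 7 lower at 3 DPI, with a median of -1.47 (-2.61 rescaled), followed by 3 and 3, 3 and 1, and 3 and 0. After rescaling 2 were higher on each day and 10, 8, 4 and 2 lower. Atp2a1, the fast-fiber calcium pump, went from 19086 to 2977 TPM (-2.70 ± 0.28). Sln, a small peptide that inhibits the pump, went from 21.5 to 3543 TPM (7.35 ± 0.40). Against contralateral muscles 2, 3, 2 and 2 of the 13 were higher and 8, 4, 0 and 0 lower, or 2 on each day and 9, 8, 2 and 2 rescaled.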

How the data were processed

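RNA of whole TA muscles was sequenced as paired-end libraries. The authors quantified transcripts by pseudo-alignment with Kallisto to the rat genome build 6.0, and the deposited values are TPM per gene symbol, with no counts, so depth per library is unknown and no counting interval can be given. DESeq is also among the tools in the submitters' processing notes. The table held 16182 entries, 1 of them incomplete and not used. Libraries with under 7000 symbols above 1 TPM were dropped (13 of 138), and 9 whose labels conflict were put in no group. Repeat libraries of 1 muscle were averaged, leaving 114 muscles of 78 rats in 31 groups.

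Since the values were not counts, log2(TPM + 1) was tested with limma 3.58.1 (R 4.3.3, trended empirical Bayes, Benjamini-Hochberg over all 11328 genes with a mean above 1 TPM in at least 1 group), in 1 group-means model without a block. A call required adjusted p under 0.05 and a log2 fold change beyond 1, and differences between arms adjusted p under 0.05. Residuals of muscles of the same rat had a mean correlation of 0.0722 over 36 pairs (other rats -0.00871). Alternatives were all libraries, another pseudocount (0.1), no filter, size factors, the rat as a block, no fold threshold, non-running groups alone and leaving out single muscles. The procedure was tested on simulated data. All members, the regulators and the 3 highest and lowest members per comparison were named, with the 2 highest and lowest genes of other lists. The members and lists were chosen with earlier results of these data known. Muscles are the replicates, and several rats gave 2, so p-values measure the spread between muscles. Promoters came from RefSeq GRCr8 and were used for sequence only, since the files' build differs.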

Additional observations from a re-analysis of the deposited data

Results flagged for a closer look

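In groups of 4 to 10 muscles, 6 of 175 pairs of a member and a group (without repair or running) had an extreme muscle whose gap to its nearest neighbour exceeded the Dixon limit, a test that chance alone trips in about 1 of 20 groups. Control replicate 4 was the lowest control for Pdia3, at 27.2 TPM against 41.9 TPM in its nearest neighbour, and for Kdelr2, at 10.5 TPM (10.46) against 20.9 TPM. Among contralateral muscles at 7 DPI, the highest Creld2 value was 4.12 TPM against 3.38 TPM, and the lowest Sec61a1 value was 4.91 TPM against 7.18 TPM. Among injured muscles, the highest Eif2ak3 value at 14 DPI was 6.67 TPM against 4.66 TPM, and the highest Edem1 value at 28 DPI was 12.8 TPM (12.85) against 9.43 TPM. The 14 DPI muscle was the highest of its 4 for 29 of the 35 members, and the 28 DPI muscle for 26.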

How the results depend on the processing

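Under size factors the number of members called in either direction moved from 27 to 16 at 7 DPI and from 11 to 7 at 28 DPI against controls. Against contralateral muscles it moved from 23 to 14, 14 to 9 and 9 to 3 at 7, 14 and 28 DPI, and for contralateral against control at 3 DPI from 2 to 1. Grafted muscles went from 16 to 9 at 14 DPI and from 12 to 4 at 28 DPI. Running injured muscles went from 23 to 15 and 17 to 8 at 7 and 14 DPI, and running grafted muscles from 16 to 10 at 14 DPI. Each of these 5 rescaled counts includes Atf4 as a lower call. Rescaling moved the median of all genes in these 5 comparisons by -0.557, -0.454, -0.741, -0.555 and -0.504 log2 units in the same order. Their rescaled shares of all genes called are not given here, so the counts cannot be set against them. The day comparisons went from 3 to 0 (14 against 7 DPI) and from 23 to 15 (28 against 3 DPI). The log2 fold changes against controls or contralateral muscles that turned and were called on either scale were Sec23a at 3 DPI (-1.04), Dnajb11 (-0.037) and Ssr3 (-0.065) at 7 DPI against controls, and Ssr4 at 7 DPI against contralateral muscles (-1.04), and a further 62 turned that were called on neither scale.

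By adjusted p alone 31 members differed at 14 and at 28 DPI against controls, and 28 and 22 against contralateral muscles. Of all 11328 genes, 6897 were higher and 318 lower against contralateral muscles at 14 DPI, and 5338 and 292 at 28 DPI. For contralateral against control 25, 5 and 1 members differed at 3, 7 and 14 DPI. Grafted muscles had 28 and 28 at 14 and 28 DPI (7306 higher and 533 lower, then 6694 and 386, of all genes). Running injured and running grafted muscles had 27 and 29 at 14 DPI (7429 and 536, then 6841 and 664, of all genes). The graft against no repair had 6 at 7 DPI. The day comparisons had 22 from 3 to 7 DPI and 30 from 7 to 14 DPI (743 higher and 7304 lower of all genes). With all libraries kept 5 members were called at 28 DPI against contralateral muscles (10.6% of all genes), 0 and 18 at 3 and 7 DPI for contralateral against control by limma (1.59% and 36.9%), 7 from 3 to 7 DPI (10.1%) and 0 from 7 to 14 DPI (2.55%), and Atf4 at 7 DPI against contralateral muscles was 1.33, turned from -0.50. With a pseudocount of 0.1 TPM 5 members were called for contralateral against control at 3 DPI (19.3%) and 6 from 7 to 14 DPI (12.5%). Leaving out 1 muscle gave 0 to 11 calls for contralateral against control at 3 DPI, 0 to 5 from 3 to 7 DPI and 1 to 7 from 7 to 14 DPI.

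With the rat as a replicate block (consensus correlation 0.0260) 279 of 280 member fold changes kept their call, the exception being Sdf2l1 at 28 DPI against contralateral muscles (0.999), and every count of members called stayed within 1.5 times. Of the 280 fold changes 280 were the same with no filter and 276 with the other pseudocount, 139 with size factors and 246 with all libraries. The leave-one-out fits of the arm differences and their fit without running groups were chosen after seeing the data. Running grafted muscles were not left out in turn. The cause of the other changes was not tested. Depth is unknown from TPM, and several contralateral groups held 2 muscles.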

Other observations

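The 8 libraries of 4 running rats at 28 DPI have titles and leg labels that name opposite legs, and they were put in no group. Kdelr3 was at 3.63, 3.68, 2.39 and 4.99 TPM in the libraries titled as injured and at 14.7, 17.6, 14.0 and 29.4 TPM in those titled as the control leg of the same rats. Edem1 was at 3.65, 3.02, 3.23 and 2.94 TPM and at 8.54, 9.33, 10.6 and 11.4 TPM in the same order. Sec24d was at 1.4, 1.46, 1.26 and 1.45 TPM and at 6.54, 8.38, 6.52 and 11.1 TPM. Atf4 was at 504, 418, 559.8 and 477 TPM and at 349.8, 313, 276 and 289 TPM. For each of these genes the 4 libraries of one title did not overlap the 4 of the other. A further library with a conflicting day held 109 TPM of Hspa5, 9.97 TPM of Kdelr3 and 298 TPM of Atf4.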
